A study of Mus musculus with 6 samples.

Results

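RNA-seq of splenic CD8+ T cells was used to follow the NKG2 receptors and KLRG1, surface receptors that antigen-experienced CD8+ T cells share with natural killer (NK) cells. The 6 genes were chosen by name, with earlier results of these data known, out of 28773 gene IDs in each sample: Klrd1, Klrk1, Klrc1, Klrc2, Klrg1 and Klre1. All 6 mapped to a single ID, and 5 of them passed the limit of a mean FPKM of at least 1, as did 12444 genes in all. FPKM divides fragments by the length of the transcript and the mapped fragments of the library, so levels of different genes can be set side by side.

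The 6 samples were 3 of the MWA+PBS group (replicates 1 to 3) and 3 of the MWA+2DG group (replicates 4 to 6), all taken on day 35 from spleens of female mice that had carried a tumor and were 6 weeks old at the start. All mice of both groups had the primary tumor treated by microwave ablation (MWA), a local heat treatment. MWA+PBS mice then received intraperitoneal saline vehicle, and MWA+2DG mice received 2-deoxy-D-glucose (2DG), a glucose analogue that blocks glycolysis. The strain and tumor line of these mice, and whether a sample was a single animal, were not given in the sources used here. Accordingly, p-values measure the spread between these samples. The cells came from a magnetic kit that removes other cells rather than from a sort on CD8.

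NKG2 proteins are lectin-like receptors whose genes lie side by side in the NK gene complex. CD94, encoded by Klrd1, is the shared partner that NKG2A (Klrc1) and NKG2C (Klrc2) need to reach the surface, where the NKG2A pair inhibits and the NKG2C pair activates the cell on meeting the nonclassical MHC molecule Qa-1. NKG2D (Klrk1) works without CD94, binds stress-induced ligands and signals in T cells through the adaptor DAP10. KLRG1 binds cadherins and marks effector and effector-memory CD8+ T cells.

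In the GENCODE M21 annotation, Klre1, Klrd1, Klrk1, Klrc3, Klrc2 and Klrc1 follow each other in this order on chromosome 6. Klre1 and Klrd1 are on the plus strand and the other four on the minus strand, and Klrg1 lies apart from them on the same chromosome. No annotated gene overlapped any of the 6 receptor genes. The longest Klrc1 transcript matched Klrc2 at 98.9% identity over 1163 bases, and the Klrc3 transcript matched Klrc2 at 96.2% over 715 bases. How fragments that fit several of these copies were assigned was not given in the sources used here. Hence the split among Klrc1, Klrc2 and Klrc3 is uncertain. Klrd1, Klrk1 and Klrg1 had no match of at least 150 bases to another gene.

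Before the receptors, the make-up of the isolates was examined. Cd8a, the defining gene of the labelled cells, was 229.51, 239.27 and 225.8 FPKM in the MWA+PBS samples and 363.14, 358.98 and 377.07 FPKM in the MWA+2DG samples (log2 fold change 0.66 ± 0.0538 SE, limma adjusted p = 8.94e-05). Of 14 T lineage genes, 13 were higher in MWA+2DG and 0 lower, beside 22.3% and 17.1% of all tested genes. Markers of other cells moved as well: 9 of 9 neutrophil genes were higher (summed FPKM 56.58 to 82.76 against 1554 to 1733) and 7 of 7 B cell genes were higher (9.25 to 10.45 against 53.25 to 58.79), while 9 of 9 macrophage genes (616.8 to 673.7 against 93.15 to 99.5) and 8 of 8 erythroid genes (302.2 to 358.5 against 71.53 to 89.18) were lower. No marker in these lists was at 0 in all samples. In bulk RNA, fewer cells of a type and less RNA per cell cannot be told apart. The part of these shifts in the receptor values was not tested, other than by setting the receptors against T lineage and NK genes as given after their values.

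Of the 5 receptor genes tested, 4 rose after 2DG (limma adjusted p under 0.05) and 0 fell. Among all 12444 genes, 22.3% rose and 39.4% changed in either direction by this rule. Without the expression limit 2 of 6 receptor genes rose, beside 8.86% of all genes, and after scaling to T lineage genes 1 of 5 (Klrd1) rose, beside 4.78%. By the study's own rule (P under 0.05, log2 fold change past 0.25), all 5 tested receptor genes were higher, beside 21.6% of all genes higher and 38.2% changed either way. The genes that rose were Klrd1, Klrk1, Klrg1 and Klrc1, by 2.12, 1.59, 1.54 and 1.4 times in mean FPKM. Klrc2 did not pass, and Klre1, which was under the expression limit, had lower values with 2DG. The 5 tested receptor genes had a median log2 fold change of 0.46, beside 0.0462 over all tested genes. For all 5 the groups did not overlap with MWA+2DG above, which was so for 30.2% of tested genes.

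**Figure D1:**
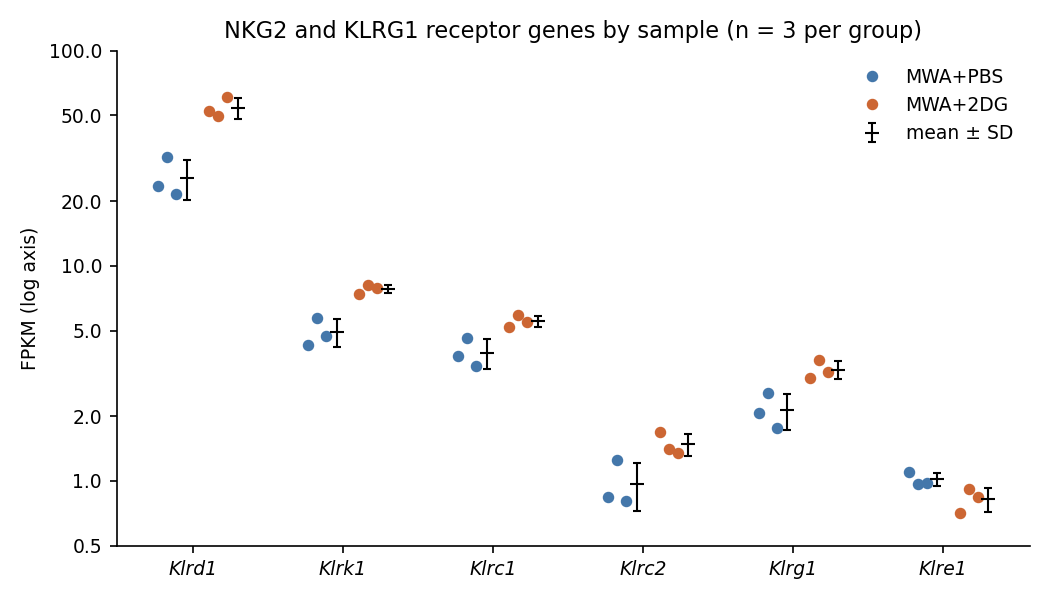
FPKM of the 6 receptor genes in each sample on a log axis, with 3 MWA+PBS samples in blue, 3 MWA+2DG samples in orange and the mean ± SD beside each group. Klrd1 was the highest of the 6 in every sample, MWA+2DG samples were above MWA+PBS samples for 5 genes, and they were below for Klre1.

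Klrd1 (ENSMUSG00000030165), encoding the CD94 partner chain, was 23.46, 31.94 and 21.68 FPKM in the MWA+PBS samples and 52.47, 49.60 and 61.08 FPKM in the MWA+2DG samples. The groups did not overlap (as for 52.1% of tested genes in either direction), and the lowest MWA+2DG sample stood well above the highest MWA+PBS sample, replicate 2. The mean was 25.69 ± 5.482 FPKM (SD, n = 3) in the MWA+PBS samples and 54.38 ± 5.974 FPKM (n = 3) in the MWA+2DG samples. The log2 fold change was 1.07 ± 0.14 (SE) with a limma adjusted p of 0.00101. Klrd1 ranked 129 of 12444 genes from the highest fold change, and 0.972% of tested genes both passed the test and rose by at least as much.

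Klrk1 (ENSMUSG00000030149), encoding NKG2D, a receptor that adds a costimulatory signal to CD8+ T cells, was 4.30, 5.72 and 4.71 FPKM in the MWA+PBS samples and 7.42, 8.14 and 7.85 FPKM in the MWA+2DG samples. Replicate 2 was again the highest MWA+PBS sample, and the groups did not overlap. The mean rose from 4.91 ± 0.7308 to 7.803 ± 0.3623 FPKM (log2 fold change 0.58 ± 0.0953 SE, limma adjusted p = 0.0026). With samples scaled to equal T lineage level it did not pass (0.20, adjusted p = 0.127).

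Klrc1 (ENSMUSG00000030167), encoding the inhibitory chain NKG2A, was 3.80, 4.63 and 3.42 FPKM in the MWA+PBS samples and 5.18, 5.88 and 5.51 FPKM in the MWA+2DG samples. The mean rose from 3.95 ± 0.6188 to 5.523 ± 0.3502 FPKM without overlap of the groups (log2 fold change 0.40 ± 0.10 SE, limma adjusted p = 0.0158). This call was lost when MWA+PBS replicate 1 (adjusted p = 0.0526) or MWA+2DG replicate 5 (adjusted p = 0.0534) was left out. It was also lost with samples scaled to equal T lineage level (0.0402, adjusted p = 0.748) and without the expression limit (0.40, adjusted p = 0.0503).

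Klrc2 (ENSMUSG00000052736), encoding the activating chain NKG2C, was near the lower limit of expression at 0.84, 1.25 and 0.81 FPKM in the MWA+PBS samples and 1.68, 1.41 and 1.35 FPKM in the MWA+2DG samples. All MWA+2DG samples were above all MWA+PBS samples, but the gap between replicates 2 and 6 was small. The log2 fold change of 0.34 ± 0.12 (SE) gave a limma p of 0.0247 and an adjusted p of 0.0596, so the difference did not pass. Without MWA+PBS replicate 2 it did (0.44, adjusted p = 0.0206).

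Since Klrc1, Klrc2 and their neighbour Klrc3 are close copies, their FPKM were also summed. Klrc3, which encodes NKG2E, was 3.58, 4.11 and 4.31 FPKM in the MWA+PBS samples and 5.02, 5.98 and 5.69 FPKM in the MWA+2DG samples (log2 fold change 0.39 ± 0.0878 SE, limma adjusted p = 0.0103). The sum, which still depends in part on the split because FPKM divides by the length of each transcript, was 8.22, 9.99 and 8.54 FPKM in the MWA+PBS samples and 11.9, 13.3 and 12.6 FPKM in the MWA+2DG samples. Its log2 fold change was 0.46 (limma adjusted p = 0.00396), and this alternative was chosen after seeing the data. The shares of the 3 copies overlapped between the groups: Klrc1 held 44.2% ± 3.6 of the sum in MWA+PBS and 43.9% ± 0.355 in MWA+2DG, and the ratio of Klrc1 to Klrc2 was 4.15 ± 0.415 and 3.78 ± 0.604.

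Klrg1 (ENSMUSG00000030114), encoding the cadherin receptor, was 2.07, 2.57 and 1.76 FPKM in the MWA+PBS samples and 3.02, 3.64 and 3.21 FPKM in the MWA+2DG samples. No MWA+PBS sample reached the lowest MWA+2DG sample. The mean rose from 2.133 ± 0.4087 to 3.29 ± 0.3176 FPKM (log2 fold change 0.46 ± 0.11 SE, limma adjusted p = 0.0155). With samples scaled to equal T lineage level (0.14, adjusted p = 0.324) and without the expression limit (0.46, adjusted p = 0.0517) it did not pass. The call was also lost without MWA+2DG replicate 5 (0.40, adjusted p = 0.0531). Without that sample, 2 of the 5 tested receptor genes were called higher in place of 4, and 2322 of all 12444 tested genes in place of 2773.

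Klre1 (ENSMUSG00000050241), encoding NKG2I, a receptor that pairs with KLRI chains in NK cells, was 1.10, 0.97 and 0.98 FPKM in the MWA+PBS samples and 0.71, 0.92 and 0.84 FPKM in the MWA+2DG samples. It was the only one of the 6 whose MWA+2DG samples were all below the MWA+PBS samples, as were those of 21.9% of tested genes. In the fit without the expression limit, which called 18.0% of all 28773 genes, its log2 fold change was -0.15 ± 0.0825 (SE) with a limma adjusted p of 0.312, so the difference did not pass.

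Promoter sequences are shown for the neighbours Klrk1, Klrc1, Klrc2 and Klre1, since the first 3 had higher values in MWA+2DG and Klre1 lower. They are from RefSeq (GRCm38.p6), each 300 bases from 250 before to 50 after an annotated start, 5′ to 3′ on the strand of the gene. Of the 6 receptor genes, 4 had an entry; Klrd1 and Klrg1 are named only. Capitals mark a match on either strand to the Runx motif TGTGGT or the AP-1 motif TGANTCA, motifs of factors at work in CD8+ T cells.
Klrk1, chr6:129623815-129624114, minus strand: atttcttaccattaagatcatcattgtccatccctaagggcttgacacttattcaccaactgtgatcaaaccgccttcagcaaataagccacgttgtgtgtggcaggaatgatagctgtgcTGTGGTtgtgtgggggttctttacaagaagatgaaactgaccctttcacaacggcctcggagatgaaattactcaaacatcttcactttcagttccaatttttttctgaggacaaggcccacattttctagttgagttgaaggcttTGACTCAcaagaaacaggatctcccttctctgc
Klrc1, chr6:129678924-129679223, minus strand: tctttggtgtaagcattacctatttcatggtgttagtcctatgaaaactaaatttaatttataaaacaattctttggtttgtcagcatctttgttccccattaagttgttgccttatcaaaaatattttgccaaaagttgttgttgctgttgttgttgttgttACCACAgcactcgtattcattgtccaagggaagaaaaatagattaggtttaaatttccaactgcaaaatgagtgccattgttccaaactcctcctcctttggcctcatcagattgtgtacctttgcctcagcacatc
Klrc2 (first of 2 starts), chr6:129660547-129660846, minus strand: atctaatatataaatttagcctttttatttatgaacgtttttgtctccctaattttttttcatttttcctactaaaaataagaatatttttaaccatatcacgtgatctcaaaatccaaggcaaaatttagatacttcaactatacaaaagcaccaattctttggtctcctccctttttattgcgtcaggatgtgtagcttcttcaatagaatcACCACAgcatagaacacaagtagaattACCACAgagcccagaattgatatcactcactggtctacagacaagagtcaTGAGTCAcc
Klre1 (first of 2 starts), chr6:129577963-129578262, plus strand: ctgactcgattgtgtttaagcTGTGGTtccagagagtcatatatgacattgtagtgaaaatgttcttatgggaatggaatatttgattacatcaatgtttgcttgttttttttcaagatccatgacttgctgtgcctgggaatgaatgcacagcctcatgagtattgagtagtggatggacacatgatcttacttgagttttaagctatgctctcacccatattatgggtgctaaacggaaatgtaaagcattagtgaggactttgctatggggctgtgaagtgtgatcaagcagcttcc

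All 4 windows held the Runx letters, once in Klrk1, Klrc1 and Klre1 and at 2 places in Klrc2, and 16.8% of 32851 RefSeq promoters held them. The window of the second Klre1 start held none. The AP-1 letters were in the Klrk1 window, 17 to 23 bases after the start, and in the Klrc2 window, 41 to 47 bases after the start, and in 7.81% of all promoters. The T-box motif GGTGTG (19.0% of promoters) and the STAT motif TTCNNNGAA (8.3%) were in none of the 4, and the ETS motif AGGAAG (35.4%) was in none of these windows and in that of the second Klre1 start. The motifs do not overlap each other in these windows. The Klrc1 and Klrc2 windows were 50.3% identical when aligned end to end, within the 47.4% to 53.9% of the other pairs, beside the 98.9% of the matched stretch of their transcripts. A match of letters is a description of the sequence and not of binding.

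The order of levels in FPKM was Klrd1, Klrk1, Klrc1 and Klrg1 from the highest in both groups. In MWA+PBS the samples of Klrk1 and Klrc1 overlapped, and so did those of Klrc2 and Klre1, the lowest pair. In MWA+2DG none of the neighbours in the order overlapped, and Klrc2 stood above Klre1. How pairs of these genes varied together within groups is given as a description, and differences between pairs were not tested. After each group's mean was taken out, Pearson's r of log2(FPKM + 1) over the 6 samples was 0.989 for Klrc1 and Klrg1, 0.746 for Klrd1 and Klrc1, and -0.224 for Klrd1 and Klre1. These are descriptions over samples that share library scaling.

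The receptors were next set against each other and against T lineage and NK genes, as log2 ratios within each sample, in which library scaling cancels apart from the pseudocount of 1. In 17 such comparisons, two-sided exact permutation tests were used, whose smallest possible p with 3 samples against 3 is 0.1 (0.142 after Benjamini-Hochberg adjustment), so none could pass 0.05. Relative to Klrd1, all 5 other receptor genes were lower in MWA+2DG without overlap: by log2 ratios of -0.49 for Klrk1, -0.61 for Klrg1, -0.66 for Klrc1, -0.73 for Klrc2 and -1.21 for Klre1 (each exact p = 0.1). With a pseudocount of 0.1 the differences were -0.43 for Klrk1, -0.48 for Klrg1, -0.61 for Klrc1, -0.51 for Klrc2 and -1.37 for Klre1. The size of these gaps and the order of Klrc1 and Klrc2 thus depended on the pseudocount. Klrd1 over the summed Klrc genes was 2.85, 3.2 and 2.54 in MWA+PBS and 4.42, 3.74 and 4.87 in MWA+2DG, and every MWA+2DG sample was above every MWA+PBS sample.

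Relative to the mean of the 14 T lineage genes, Klrd1 alone was higher in MWA+2DG without overlap (log2 ratio difference 0.63, exact p = 0.1). Its ratios were -1.73, -1.27 and -1.75 in MWA+PBS and -1.04, -1.02 and -0.80 in MWA+2DG. Klre1 was lower without overlap (-0.58, exact p = 0.1). For the other receptor genes the groups overlapped, with differences of 0.14 for Klrk1, 0.0218 for Klrg1, -0.0329 for Klrc1 and -0.0976 for Klrc2 (exact p = 0.4, 0.7, 0.7 and 0.5). The sign of the difference for Klrk1 and Klrg1 turned when Cd8a and Cd8b1 alone stood for the T lineage (-0.0252 and -0.15), and that for Klrc1 and Klrc2 turned with a pseudocount of 0.1 (0.0397 and 0.14). With Cd8a and Cd8b1 alone, the Klrd1 difference was 0.46 (exact p = 0.1). Per 100 FPKM of Cd8a, Klrd1 was 11.1 ± 2.01 FPKM in the MWA+PBS samples and 14.8 ± 1.23 in MWA+2DG, Klrk1 was 2.12 ± 0.26 and 2.13 ± 0.12, and Klrg1 was 0.918 ± 0.148 and 0.899 ± 0.10. The Klrd1 groups came close on this scale, at 13.3 in MWA+PBS replicate 2 and 13.8 in MWA+2DG replicate 5.

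When all samples were scaled to equal T lineage level and the limma fit was repeated, Klrd1 was the only receptor gene that rose (log2 fold change 0.64 ± 0.13 SE, adjusted p = 0.00368). Klrk1 (0.20, adjusted p = 0.127), Klrg1 (0.14, adjusted p = 0.324), Klrc2 (0.0994, adjusted p = 0.498) and Klrc1 (0.0402, adjusted p = 0.748) did not pass. Klre1, in the fit without the expression limit, fell by 0.36 (adjusted p = 0.027), where 28.8% of all 28773 genes passed as lower. This scaling moved the median log2 fold change of all tested genes from 0.0462 to -0.33 and the share of calls that were higher from 56.5% to 7.24%. By this scaling 4.78% of all tested genes rose and 61.3% fell. Taking out trends with GC content and transcript length, an alternative chosen after seeing the data, lowered the log2 fold change of Klrk1 to 0.36 (adjusted p = 0.00235), of Klrc1 to 0.21 (adjusted p = 0.0445) and of Klrc2 to 0.15 (adjusted p = 0.32).

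**Figure D2:**
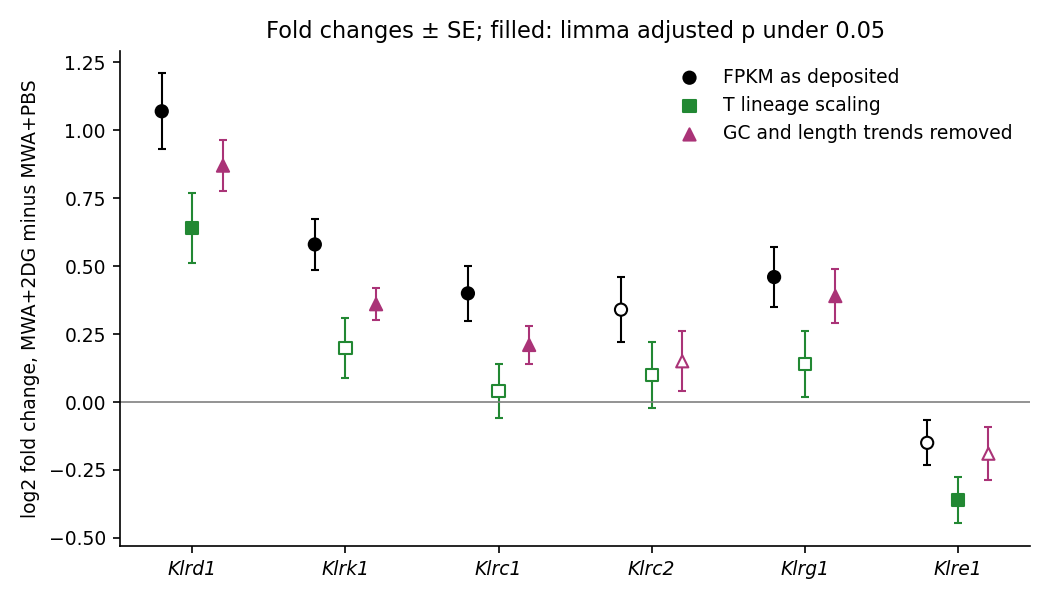
Log2 fold change (MWA+2DG minus MWA+PBS) ± SE of each receptor gene from limma with FPKM as deposited (circles), after scaling to the T lineage genes (squares) and after trends with GC content and length of transcripts were taken out (triangles); filled symbols have an adjusted p under 0.05, and Klre1 is from fits without the expression limit. Klrd1 was filled under all 3, at 1.07, 0.64 and 0.87, whereas Klrk1, Klrc1 and Klrg1 lost the call under T lineage scaling and kept it after the trends were taken out, at 0.36, 0.21 and 0.39.

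NK cells carry the same receptors, and the part of NK cells in the receptor values was not tested. Of 9 NK marker genes found, 4 passed the expression limit, and 3 of these fell and 0 rose, beside 17.1% and 22.3% of all tested genes. Summed FPKM of the 9 genes was 17.73 to 19.95 for MWA+PBS samples and 10.81 to 11.45 for MWA+2DG samples. None was at 0 in all samples. Ncr1, encoding NKp46, a defining NK receptor, was 7.17, 6.34 and 6.12 FPKM in the MWA+PBS samples and 4.76, 5.02 and 4.97 FPKM in the MWA+2DG samples (log2 fold change -0.35 ± 0.0723 SE, limma adjusted p = 0.00764). Sh2d1b1, encoding the NK signalling adaptor EAT-2, fell by 1.61 (adjusted p = 3.39e-05), and Klri1, a partner of KLRE1, fell by 0.58 (adjusted p = 0.0388) with overlapping groups, a call lost without MWA+PBS replicate 2 or 3 or MWA+2DG replicate 5 or 6 (adjusted p = 0.0917, 0.107, 0.113 and 0.10), without the expression limit (0.122) and with arrayWeights (0.15).

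Relative to the mean of the NK markers, 5 receptor genes were higher in MWA+2DG without overlap, by log2 ratios of 1.41 for Klrd1, 0.93 for Klrk1, 0.80 for Klrg1, 0.75 for Klrc1 and 0.68 for Klrc2 (each exact p = 0.1, the smallest possible). Klre1 differed by 0.20 with overlapping groups (exact p = 0.2). The ratio of Klrd1 to Ncr1 was 3.27, 5.04 and 3.54 in MWA+PBS and 11.0, 9.88 and 12.3 in MWA+2DG, so the groups stood far apart.

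Other T cells that can carry these receptors gave mixed values, where 22.3% of all tested genes rose and 17.1% fell. Of 5 tested gamma delta T cell genes, 2 rose and 0 fell (median 0.40, beside 0.43 for the T lineage genes). Tcrg-C2 rose by 0.89 and Tcrg-C1 by 0.40 on the log2 scale (adjusted p = 0.000467 and 0.0195). Trdc (0.20, adjusted p = 0.159), Tcrg-C4 (0.0586, adjusted p = 0.609) and Trdv4 (0.40, adjusted p = 0.30) did not pass. Sox13, under the expression limit, rose by 0.53 in the fit without it (adjusted p = 0.0165). Summed FPKM of the 6 listed genes was 21.35 to 24.63 for MWA+PBS samples and 30.46 to 35.17 for MWA+2DG samples. Of 4 tested NKT and innate-like T cell genes, Cxcr6 rose by 1.25 and 3 fell, among them Tmem176b (-0.62) and Zbtb16 (-0.40), which encodes PLZF, the defining factor of these cells. Of 5 tested CD4 and regulatory T cell genes, Zbtb7b (-0.51) and Cd4 (-0.50) fell and 0 rose. The part of these cells in the receptor values was not tested.

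**Figure D3:**
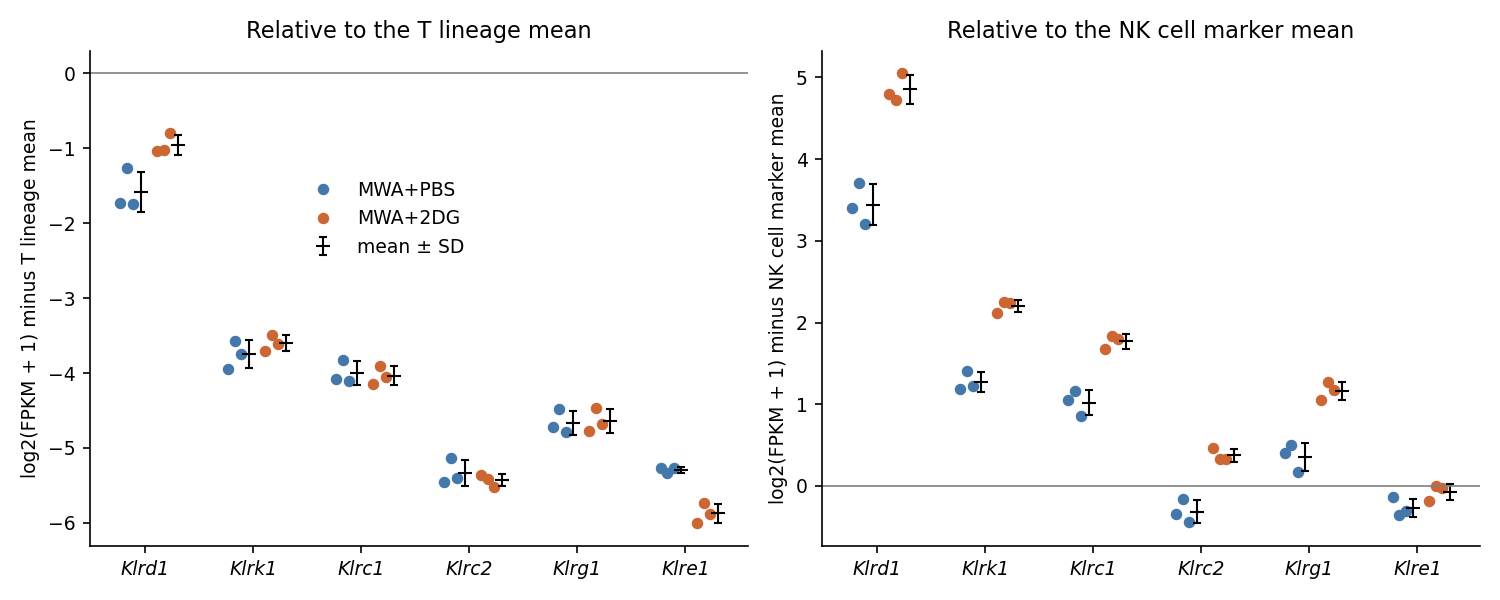
Log2(FPKM + 1) of each receptor gene minus the mean log2(FPKM + 1) of 14 T lineage genes (left) or 9 NK marker genes (right), in 3 MWA+PBS samples (blue) and 3 MWA+2DG samples (orange), with mean ± SD. Against the T lineage only Klrd1 was higher and Klre1 lower without overlap, and against the NK markers 5 genes were higher without overlap.

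The adaptors of the receptors went in opposite directions. Of 15 adaptor and signalling genes, 2 rose, 5 fell and 8 did not pass (median log2 fold change -0.13). Among all tested genes 22.3% rose and 17.1% fell (median 0.0462). After scaling to T lineage genes, 1 rose and 14 fell, where 61.3% of all tested genes fell with a median of -0.33. Hcst, encoding DAP10, the adaptor of NKG2D, was 15.45, 14.2 and 14.82 FPKM in the MWA+PBS samples and 28.08, 24.68 and 23.58 FPKM in the MWA+2DG samples. The groups were far apart, at 0.74 ± 0.0744 SE on the log2 scale (limma adjusted p = 0.00025), and the ratio of Hcst to Klrk1 was 3.07 ± 0.559 and 3.27 ± 0.443, with overlapping samples. Tyrobp, encoding DAP12, the adaptor of the CD94 and NKG2C pair, was 45.63, 44.63 and 40.17 FPKM in the MWA+PBS samples and 20.08, 14.29 and 16.44 FPKM in the MWA+2DG samples (-1.32 ± 0.12 SE on the log2 scale, adjusted p = 0.000126). Fcer1g, encoding the Fc receptor gamma chain, fell by 1.76 (adjusted p = 2.83e-05), and Plcg2, a phospholipase of myeloid, B and NK cells, fell by 1.08 (adjusted p = 7.04e-05). Tyrobp, Fcer1g and Plcg2 are also genes of macrophages and their 9 markers fell by 2.49 to 2.78. The part of macrophages in the adaptor values was not tested.

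The phosphatases that the inhibitory receptors recruit did not pass with FPKM as deposited, and Ptpn6, Ptpn11 and Inpp5d fell after scaling to T lineage genes, as did 61.3% of all tested genes (median -0.33). Ptpn6, encoding SHP-1, was 106.8 ± 9.377 FPKM in the MWA+PBS samples and 96.67 ± 8.424 FPKM in the MWA+2DG samples (log2 fold change -0.14 ± 0.0879 SE, limma adjusted p = 0.236), and fell by 0.58 after that scaling (adjusted p = 0.000247). Inpp5d, encoding SHIP-1, was 29.82 ± 1.79 and 27.8 ± 0.627 FPKM (-0.0964 ± 0.0589 SE, adjusted p = 0.231), and fell by 0.52 after it (adjusted p = 0.000388). Ptpn11, encoding SHP-2, had a log2 fold change of -0.13 (adjusted p = 0.128) and fell by 0.55 after it (adjusted p = 0.000268).

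Ligands of the receptors were measured in the same isolates. Of 13 ligand genes listed, 8 were found and 4 tested, with 1 higher, 1 lower and 2 that did not pass, beside 22.3% higher and 17.1% lower among all tested genes. After scaling to T lineage genes, 1 rose and 2 fell, beside 4.78% and 61.3%. H2-T23, encoding Qa-1, the ligand of the CD94 pairs, was 68.09, 72.79 and 59.44 FPKM in the MWA+PBS samples and 114.12, 96.99 and 112.81 FPKM in the MWA+2DG samples. The groups were apart, with a log2 fold change of 0.69 ± 0.0937 (SE, adjusted p = 0.00109), and of 0.25 after that scaling (adjusted p = 0.018). H60b, a ligand of NKG2D, was 7.34, 7.38 and 8.26 FPKM against 6.21, 6.34 and 4.53 FPKM and fell by 0.38 (adjusted p = 0.0349). The H60b call was lost without MWA+PBS replicate 1, 2 or 3 (adjusted p = 0.0674, 0.0564 and 0.0981), without MWA+2DG replicate 6 (0.0575) and without the expression limit (0.101). Cdh1, encoding E-cadherin, the ligand of KLRG1, was 1.36 ± 0.2706 and 1.467 ± 0.1626 FPKM with overlapping groups.

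Among 10 listed lectin-like receptors of the same complex that were found, 5 were tested. Of these, 2 rose and 1 fell, beside 22.3% and 17.1% of all tested genes. After scaling to T lineage genes, 1 rose and 3 fell (4.78% and 61.3% of all tested genes), and Klrc3, given above, did not pass (0.0271, adjusted p = 0.832). Clec2d, encoding the ligand of an NKR-P1 receptor, was 17.58, 21.03 and 12.6 FPKM in the MWA+PBS samples and 35.57, 27.88 and 33.2 FPKM in the MWA+2DG samples (log2 fold change 0.90 ± 0.17 SE, adjusted p = 0.0054). Klri1 fell, as given with the NK markers.

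Genes that go with KLRG1 in terminal effector cells did not share one direction. Of 11, 5 rose, 2 fell and 4 did not pass (median log2 fold change 0.28). Among all tested genes 22.3% rose and 17.1% fell (median 0.0462). After scaling to T lineage genes, 2 rose and 4 fell, beside 4.78% and 61.3% of all tested genes. S1pr5, a receptor for egress from tissue, rose by 0.73 (adjusted p = 0.00376), Ccl5, a chemokine of effector and memory cells, by 0.66 (adjusted p = 0.00275) and Tbx21, encoding T-bet, by 0.35 (adjusted p = 0.00185). Under that scaling Ccl5 (0.22, adjusted p = 0.133) and Tbx21 (-0.0587, adjusted p = 0.382) did not pass. Zeb2, a factor of terminal effector cells that macrophages also express, was 3.64, 3.51 and 3.85 FPKM in the MWA+PBS samples and 1.5, 1.54 and 1.64 FPKM in the MWA+2DG samples and fell by 0.87 (adjusted p = 0.000122). Cx3cr1, a chemokine receptor of the same cells, was 1.863 ± 0.1582 and 1.987 ± 0.1012 FPKM with overlapping groups (adjusted p = 0.598), and fell by 0.23 under that scaling (adjusted p = 0.0491), less than the median of all tested genes, -0.33.

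Of 15 memory precursor and central memory genes, 10 rose, 0 fell and 5 did not pass (median 0.44). Among all tested genes 22.3% rose and 17.1% fell (median 0.0462), and the median of the T lineage genes was 0.43. After scaling to T lineage genes, 4 of the 15 rose and 6 fell, beside 4.78% and 61.3% of all tested genes. Cxcr3, a chemokine receptor of memory cells, was 18.43, 14.39 and 13.93 FPKM in the MWA+PBS samples and 45.19, 44.57 and 50.08 FPKM in the MWA+2DG samples (log2 fold change 1.53 ± 0.11 SE, adjusted p = 4.08e-05). Eomes, a T-box factor of memory CD8+ T cells and NK cells, rose by 0.97 (adjusted p = 1.06e-05) and Cd27, a costimulatory receptor, by 0.80 (adjusted p = 6.34e-05). Il7r, the receptor subunit that marks long-lived memory cells, was 187.7 ± 10.5 and 185.1 ± 7.345 FPKM (adjusted p = 0.83), and fell by 0.46 after scaling to T lineage genes (adjusted p = 0.00058), where the median of all tested genes was -0.33.

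Of 15 IL-15 response and cytotoxic genes of memory CD8+ T cells, 11 rose, 2 fell and 2 did not pass (median 0.56). Among all tested genes 22.3% rose and 17.1% fell (median 0.0462), and the T lineage median was 0.43. After scaling to T lineage genes, 6 rose and 2 fell, beside 4.78% and 61.3% of all tested genes. Gzmk, encoding granzyme K, rose by 1.14 (adjusted p = 0.000182), Xcl1, encoding lymphotactin, by 1.11 (adjusted p = 0.00831) and Gzmm, encoding granzyme M, by 0.95 (adjusted p = 0.000349). Il2rb, the receptor chain through which IL-15 signals, was 119.13, 107.75 and 124.17 FPKM in the MWA+PBS samples and 101.17, 96.58 and 99.32 FPKM in the MWA+2DG samples and fell by 0.24 (adjusted p = 0.0225), a call lost when any sample but MWA+PBS replicate 2 was left out (adjusted p = 0.0519 to 0.078) and without the expression limit (0.0504). Cd44, a marker of antigen-experienced cells, was 26.13 ± 0.8771 FPKM in the MWA+PBS samples and 19.65 ± 0.8789 FPKM in the MWA+2DG samples and fell by 0.39 (adjusted p = 0.00135). The 9 macrophage markers fell by 2.49 to 2.78 in the same isolates, and the part of macrophages in the Cd44 value was not tested.

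**Figure D4:**
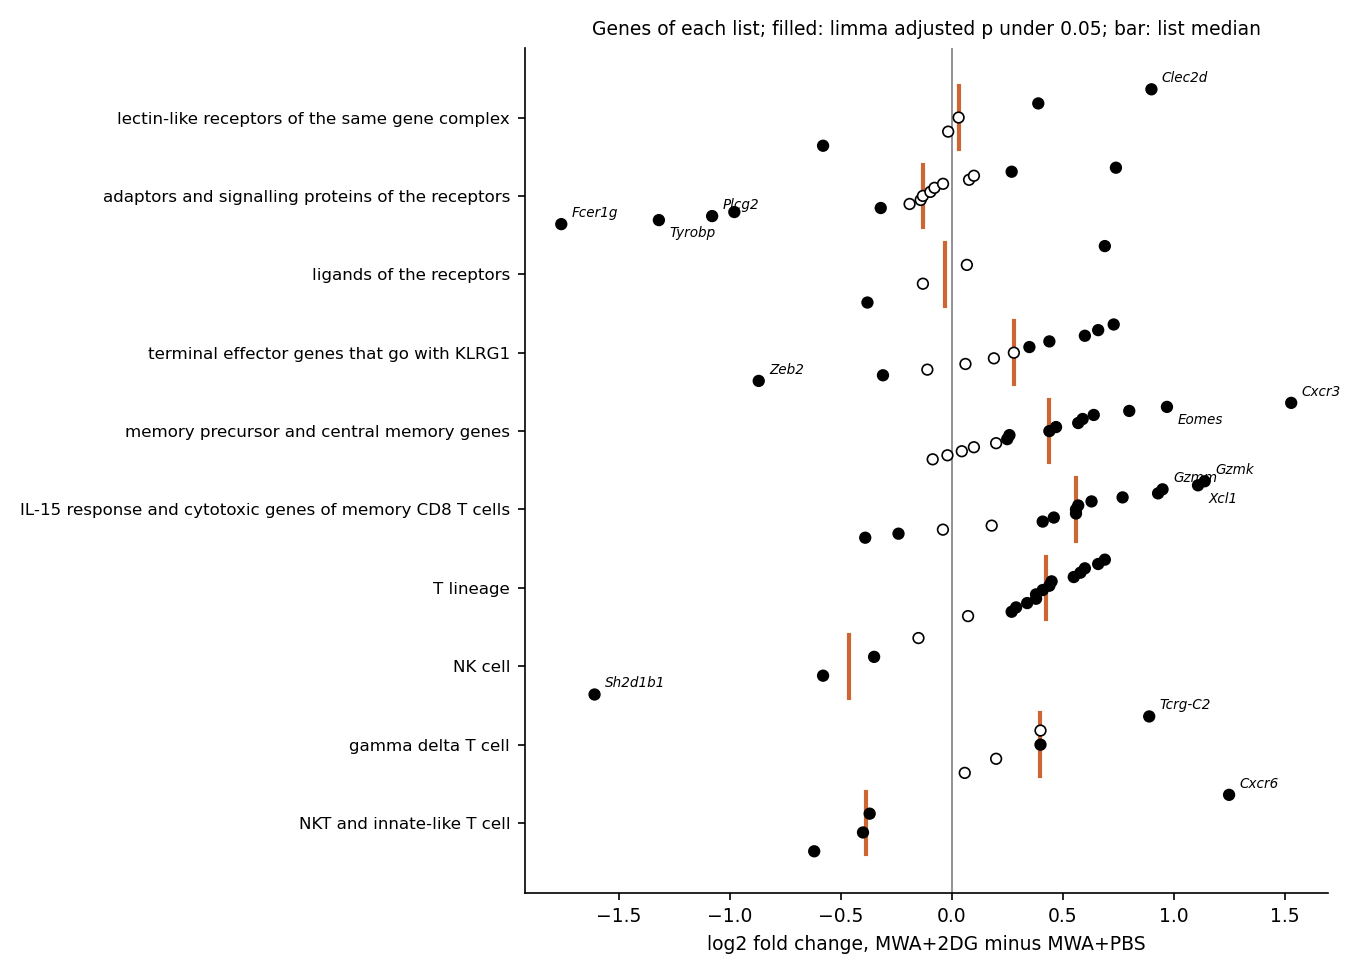
Log2 fold change (MWA+2DG minus MWA+PBS) of each tested gene in 6 lists of related genes and 4 lists of cell type markers, filled where the limma adjusted p was under 0.05, with the median of each list as an orange bar; genes of one list are spread vertically in order of their fold change. Medians were 0.44 for memory precursor and central memory genes, 0.56 for the IL-15 response and cytotoxic list, 0.43 for the T lineage and -0.46 for NK markers.

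For each receptor gene, the tested genes most like it in log2(FPKM + 1) over the 6 samples were found by Pearson's r, given as a description. For Klrc1 these were Gm46430, Rpap2 and Klrg1, and for Klrg1 they were Klrc1, Snn and 2310009B15Rik, so this pair was each other's near match with r = 0.997. They were 0610037L13Rik, Ankra2 and BC002059 for Klrd1, Rasa2, Mtif2 and 9130208D14Rik for Klrk1, C230037L18Rik, Sms and Timm21 for Klrc2, and Ypel2, Gm45133 and Tom1 for Klre1. An r of at least 0.9 was shared with 2012 genes by Klrd1 and with 131 genes by Klre1, so with 2 groups of 3 samples a high r is common.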

How the data were processed

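Poly(A) RNA of splenic CD8+ T cells from 6 samples, 3 MWA+PBS and 3 MWA+2DG, was sequenced as strand-marked libraries with molecular identifiers in the adapters. The authors deposited FPKM with 2 decimals for 28773 gene IDs. Per the study's methods, reads were checked with fastp, mapped with HISAT2 and quantified with StringTie and ballgown. The submitters' processing notes name cutadapt 1.9, HISAT2 2.0.4, UMI-tools, StringTie 1.3.4d and the build mm9. The annotation, and whether quantification used the identifiers or the strand, were not given in the sources used here. FPKM holds no read counts, so depth is unknown and values carry no counting interval. As shares of a library, FPKM of most genes drop where a few transcripts take more of it. Per sample, 22414 to 23340 genes were above 0, total FPKM was 291803 to 313257, and mitochondrial genes held 21.41% to 22.84% of it for MWA+PBS samples and 19.41% to 20.74% for MWA+2DG samples. No 2 samples were identical. With no batch in the labels, any batch matching the groups and the effect of 2DG cannot be told apart.

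Symbols for 28689 IDs came from GENCODE M21. The test was limma 3.58.1 in R 4.3.3 on log2(FPKM + 1), eBayes with a trend, two-sided, over the 12444 genes with a mean FPKM of at least 1, with Benjamini-Hochberg adjustment over all of them and a threshold of 0.05. All fold changes use this scale, so those of low genes are understated. The study's own rule, P under 0.05 and a log2 fold change past 0.25, was a second call rule. Log2 ratios within samples were compared by two-sided exact permutation tests. T lineage scaling multiplied each sample to an equal mean log2 FPKM of 14 T lineage genes. Copies were sought with BLAST 2.17.0 among GENCODE M21 transcripts. The 6 receptor genes were named whatever their values. From each list of related genes, the 3 genes with the largest fold change among those called were named, with Hcst, Tyrobp, H2-T23, Ptpn6, Inpp5d, Cx3cr1, Tbx21, Eomes, Il7r, Cd27 and Il2rb always, and for each receptor gene the 3 genes most like it. A further gene of that rule is not reported here. Of the markers, Cd8a was named as the identity check and, from the NK and T cell subset lists, up to 3 called genes by the same order. Cdh1, Ptpn11, Cd44, Trdc, Tcrg-C4, Trdv4 and Sox13 were named after their values were seen. The receptor genes and lists were chosen with earlier results of these data known. The fit was tested on simulated data.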

Additional observations from a re-analysis of the deposited data

How the results depend on the processing

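Klrd1 kept its direction and call in 16 of 16 alternatives (log2 fold change 0.96 to 1.23 when 1 sample was left out), Klrk1 in 15 of 16, Klrc1 in 12 of 16 and Klrg1 in 12 of 15. By the study's own call rule, 5 of 5 tested receptor genes were higher, beside 21.6% of all tested genes. T lineage scaling ended the calls of Klrk1 (0.20), Klrc1 (0.0402) and Klrg1 (0.14), and made that of Klre1 (-0.36). Without a filter on low values, Klrc1 (0.40, limma adjusted p = 0.0503) and Klrg1 (0.46, adjusted p = 0.0517) did not pass. Klrc2 passed with quantile normalization (0.40), without a trend in eBayes (0.34), with arrayWeights (0.41) and, in an alternative chosen after seeing the data, with the 3 Klrc genes summed (0.46). Leaving out 1 sample gave 0.51 to 0.68 for Klrk1, 0.33 to 0.50 for Klrc1, 0.28 to 0.44 for Klrc2, 0.37 to 0.56 for Klrg1 and -0.18 to -0.10 for Klre1. Taking out trends with GC content and length of transcripts, also chosen after seeing the data, gave 4 calls among the receptor genes, with Klrk1 at 0.36, Klrc1 at 0.21 and Klrc2 at 0.15. Of all 12444 tested genes, 2443 were then called higher and 2711 lower, so 47.4% of the calls were higher.

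The count of receptor genes called was 2 to 5 when 1 sample was left out (2 without MWA+2DG replicate 5), 2 without the filter, 1 with T lineage scaling and 2 of 2 tested at a mean FPKM of at least 5. The count over all genes, 4907, was 8217 with T lineage scaling, 3706 to 5195 when 1 sample was left out and 2951 at a mean FPKM of at least 5. Calls in the lectin-like list were 1 at a mean FPKM of at least 5, those among adaptors and signalling genes 15 (14 lower) and among IL-15 response and cytotoxic genes 8 with T lineage scaling. Those among ligands were 1 without the filter and 1 to 2 when 1 sample was left out (1 without MWA+PBS replicate 1, 2 or 3 or MWA+2DG replicate 6). Ratios to the T lineage mean changed sign for Klrk1 (-0.0252) and Klrg1 (-0.15) with Cd8a and Cd8b1 only, and for Klrc1 (0.0397) and Klrc2 (0.14) with a pseudocount of 0.1. They ranged from -0.0998 to 0.0582 for Klrc1 and from -0.064 to 0.11 for Klrg1 when 1 sample was left out. For these changes the cause was not tested. No paired analysis was possible because the groups, numbered 1 to 3 and 4 to 6, share no sample number. Depth is unknown, and genes near 1 FPKM such as Klrc2 and Klre1 are the least certain.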
